A study of Mus musculus with 9 samples.

Results

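Txnip and the arrestin-domain genes Arrdc1, Arrdc2, Arrdc3 and Arrdc4 were followed in activated CD8 T cells of 3 clones that recognise the same parasite peptide. The 5 genes were chosen by name, as the family of α-arrestins listed for this series, out of 24060 genes in the table, and all 5 were among the 11330 genes whose highest level exceeded 1 TPM (the deposited unit, a level per transcript length that sums to 1 fixed total per library). In R7-II cells, Txnip and Arrdc3 were about as far above the other clones as each other, near 3-fold, Arrdc1 and Arrdc2 were higher by less than 2-fold, and Arrdc4 was lower by more than 2-fold. R7-I and R7-III cells did not differ past the threshold in any of the 5 genes.

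Spleen cells from mice of the lines R7-I, R7-II or R7-III were cultured overnight with 10 µM ROP7 peptide of Toxoplasma gondii and 10 ng/ml IL-2, and CD3+ CD8+ cells that bound the ROP7 tetramer were sorted for RNA sequencing. The mice are transnuclear lines on a BALB/c background with functional Rag2, and the T cells of each line carry the T cell receptor (TCR) of 1 founder CD8 T cell, so each clone is 1 receptor in 1 line. The design states the order of affinity for peptide as R7-I over R7-III over R7-II and the order of self-reactivity as R7-III over R7-I over R7-II. Each clone had 3 libraries labelled as biological replicates, all 9 from peptide-activated cells, and unstimulated cells were not analysed here. The sources used here do not say whether replicates came from separate mice, so p-values measure only the spread between these libraries.

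The α-arrestins are cytosolic adaptors that recruit NEDD4-family ubiquitin ligases to membrane proteins and send those proteins into endosomes. Txnip binds thioredoxin and also lowers glucose uptake by drawing the glucose transporter GLUT1 (Slc2a1) off the cell surface; its gene is a classical target of the glucose-sensing factor MondoA (Mlxip), which works with Mlx. Activated T cells switch to high glucose uptake, and loss of Txnip RNA is a known part of that switch. Arrdc1 recruits the ESCRT protein Tsg101 to the plasma membrane and drives the budding of small vesicles, Arrdc3 is known for the endosomal sorting of membrane receptors and of integrin β4, and Arrdc4 is, like Txnip, a MondoA target.

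Promoter sequences are shown for Txnip, Arrdc4 and Arrdc3, because the first pair share a described regulator yet stood on opposite sides in R7-II, while Txnip and Arrdc3 stood on the same side. All 5 genes matched RefSeq promoter entries of GRCm38.p6, the same build as mm10, and the 250 bases before the transcript start of each entry were searched on both strands. The start of the Arrdc1 entry lies inside the gene's full span, so its window overlaps the gene, as do those of the other Arrdc3 entries. Capitals mark every match to CACGNG and CNCGNG with 5 bases between them (the carbohydrate response element that MondoA and Mlx bind), the E-box CACGTG, the Foxo motif GTAAACA, and CCAAT, which reads ATTGG on the other strand. The E-box letters are also one form of the first part of the carbohydrate response element. The Txnip window is chr3:96557707-96557956 (plus strand), the Arrdc4 window chr7:68749239-68749488 (minus strand) and the Arrdc3 window chr13:80883134-80883383 (plus strand), each printed 5′ to 3′ along its gene.
Txnip: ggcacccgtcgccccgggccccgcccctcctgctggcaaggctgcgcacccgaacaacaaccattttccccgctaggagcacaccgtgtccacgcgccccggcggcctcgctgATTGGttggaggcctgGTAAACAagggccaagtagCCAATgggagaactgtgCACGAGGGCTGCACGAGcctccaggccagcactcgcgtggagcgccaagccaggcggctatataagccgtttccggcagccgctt
Arrdc4: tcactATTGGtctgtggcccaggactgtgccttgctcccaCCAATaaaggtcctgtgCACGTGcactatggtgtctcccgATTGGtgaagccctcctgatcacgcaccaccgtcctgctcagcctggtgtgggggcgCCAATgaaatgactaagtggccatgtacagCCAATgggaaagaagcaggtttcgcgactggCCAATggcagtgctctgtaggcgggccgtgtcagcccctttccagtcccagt
Arrdc3: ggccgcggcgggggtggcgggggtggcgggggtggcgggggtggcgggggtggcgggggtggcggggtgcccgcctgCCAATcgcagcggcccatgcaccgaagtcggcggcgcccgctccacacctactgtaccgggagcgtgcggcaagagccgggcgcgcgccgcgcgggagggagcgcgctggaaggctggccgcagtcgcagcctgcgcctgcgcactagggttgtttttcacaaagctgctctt

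Among the 5 genes, the Txnip window alone held the carbohydrate response element, at -85 to -69 counted back from the transcript start, and 0.28% of 32851 promoters of this length held one. It also held a Foxo motif at -121 to -115, found in 3.17% of promoters, and CCAAT once on each strand (33.8% of promoters). The Arrdc4 window held no full carbohydrate response element by these letters, an E-box at -193 to -188 (6.02% of promoters) and 6 CCAAT matches. The Arrdc3 window held 1 CCAAT match and none of the other motifs, the Arrdc2 window held 3 CCAAT matches, and the Arrdc1 window, which covers only part of the stretch before the gene, held no match. TGACG, the core of the cAMP response element, present in 17.8% of promoters, occurred only in another of the 3 Arrdc3 windows, and AGAACA followed after 3 bases by TGTTCT, the glucocorticoid receptor element, was in none. A match is a description of these letters, and binding was not measured.

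Txnip was the most abundant of the 5 genes in every library. The gene lies at chr3:96557957-96561857 on the plus strand of mm10. Its level was 38.30, 39.35 and 43.86 TPM in R7-I replicates 1, 2 and 3, 134.36, 103.71 and 123.90 TPM in those of R7-II, and 41.43, 42.24 and 42.48 TPM in those of R7-III. Every R7-II library was above every library of the other clones, while the R7-I and R7-III libraries overlapped. The share of all genes whose clones part without overlap is not given here, for this gene or those below. The mean in R7-II was 2.98 times that in R7-I and 2.87 times that in R7-III, and the log2 fold changes were 1.55 (SE 0.0825, adjusted p = 1.40e-07) and 1.49 (adjusted p = 1.95e-07) by limma. By log2 fold change Txnip ranked 232 from the highest of all genes tested in the first comparison and 223 in the second.

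A non-coding gene on the other strand, Gm15441, spans all 3901 bases of Txnip and extends beyond it, and the reads were not strand-specific, so reads from the shared bases cannot be told apart by strand. Gm15441, looked up for this overlap after values were seen, stood at 0.27, 0.21 and 0.09 TPM in the R7-I libraries, 0.48, 0.32 and 0.75 TPM in those of R7-II, and 0.18, 0.29 and 0.16 TPM in those of R7-III, and was not tested because it never exceeded 1 TPM. These levels were under 1% of the Txnip level in each clone.

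Arrdc3, an adaptor of receptor sorting, followed Txnip closely. It lies at chr13:80883384-80896042 on the plus strand, and a transcript on the opposite strand, 1700023H06Rik, overlaps it by 1301 bases and was not analysed here. Its level was 8.77, 8.14 and 9.53 TPM in the R7-I libraries, 28.40, 25.83 and 25.05 TPM in those of R7-II, and 8.43, 8.37 and 8.08 TPM in those of R7-III. Again the R7-II libraries stood apart and the others overlapped. The mean in R7-II was 3.00 times that in R7-I and 3.19 times that in R7-III, with log2 fold changes of 1.48 (SE 0.0699, adjusted p = 7.63e-08) and 1.56 (adjusted p = 7.11e-08).

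Arrdc1, the vesicle-budding adaptor, lies at chr2:24925352-24935335 on the minus strand. It stood at 23.23, 27.04 and 25.02 TPM in the R7-I libraries, 42.28, 38.04 and 41.13 TPM in those of R7-II, and 28.26, 28.31 and 28.87 TPM in those of R7-III. The 3 clones formed 3 separate ranges, with R7-II highest and R7-I lowest. The log2 fold changes of R7-II were 0.67 against R7-I (SE 0.0593, adjusted p = 4.01e-06) and 0.49 against R7-III (adjusted p = 3.68e-05), or mean levels 1.61 and 1.42 times as high.

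Arrdc2, a less studied member, lies at chr8:70835129-70839720 on the minus strand. Its level was 4.19, 4.99 and 4.61 TPM in the R7-I libraries, 7.31, 6.56 and 7.31 TPM in those of R7-II, and 5.25, 5.44 and 5.63 TPM in those of R7-III, again in 3 separate ranges in the order of Arrdc1. R7-II was higher than R7-I by 0.53 on the log2 scale (SE 0.0806, adjusted p = 1.86e-04) and higher than R7-III by 0.32 (adjusted p = 0.00475). The second call was the weakest of the family: it was lost without R7-II replicate 1 or 3 (log2 fold change 0.30 each, adjusted p = 0.0160 and 0.0181) and without R7-III replicate 1, 2 or 3 (0.30, 0.32 and 0.34, adjusted p = 0.0212, 0.0162 and 0.0101). After quantile normalization neither Arrdc2 call held (0.18 and 0.13, adjusted p = 0.0422 and 0.111).

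Arrdc4 ran the other way. It lies at chr7:68736994-68749238 on the minus strand. Its level was 5.36, 3.95 and 4.35 TPM in the R7-I libraries, 1.92, 1.45 and 2.50 TPM in those of R7-II, and 3.96, 4.26 and 4.85 TPM in those of R7-III. All R7-II libraries lay below all others, and R7-I and R7-III overlapped. The mean in R7-I was 2.33 times that in R7-II and the mean in R7-III 2.23 times, with log2 fold changes of -0.92 (SE 0.142, adjusted p = 2.07e-04) and -0.87 (adjusted p = 3.21e-04). At this low level the log2(TPM + 1) scale understates the change, and with a pseudocount of 5 the log2 fold changes were -0.46 and -0.43, both still past the threshold. By log2 fold change Arrdc4 ranked 195 from the lowest of all genes tested against R7-I and 413 against R7-III.

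**Figure D1:**
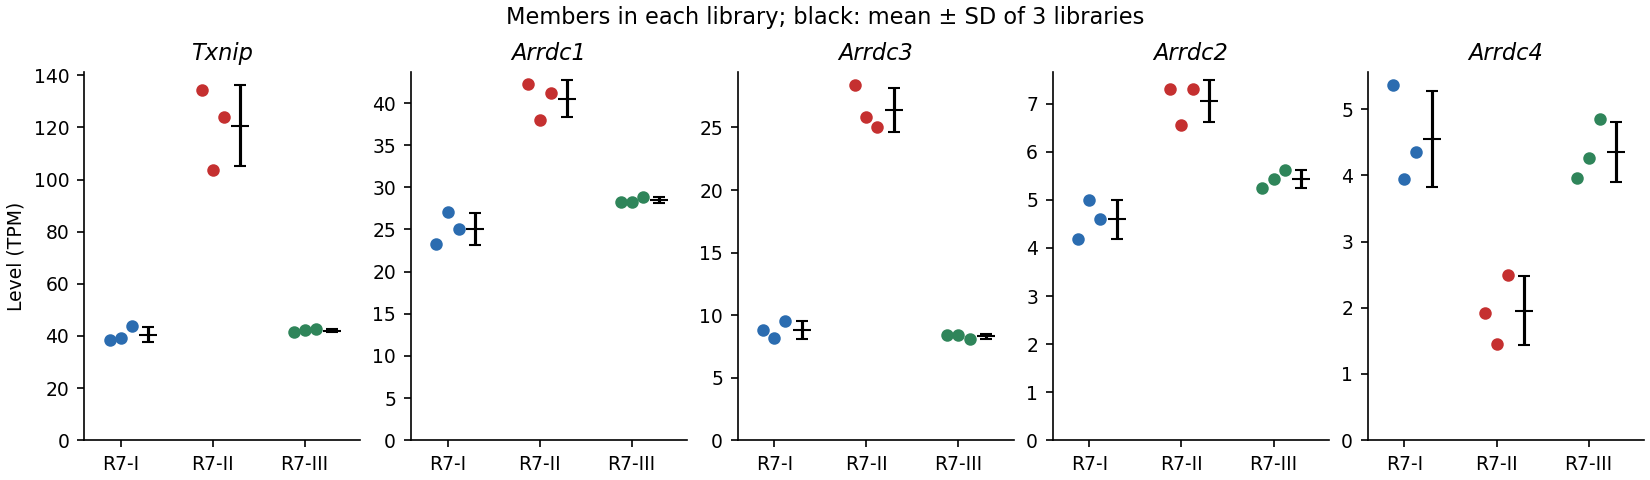
Level in TPM (vertical axes, each from 0) of the 5 genes in the 9 libraries, with coloured points for replicates 1, 2 and 3 of each clone from left to right and black marks for the mean ± SD of 3 libraries. The R7-II points lie above all others for Txnip, Arrdc1, Arrdc3 and Arrdc2 and below all others for Arrdc4.

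Markers of other cells also differed with the clone and stand beside every R7-II difference described here. Marker counts higher in R7-II than in both clones stand beside 31.9% of all genes, 21.1% after median-of-ratios scaling and 19.2% after quantile normalization. Without R7-I replicate 1 that share was 28.8%. All 8 B cell markers tested were higher in R7-II than in both clones. That count was 7 after quantile normalization, with a pseudocount of 0.1, and without replicate 1 or 3 of R7-I or R7-II. Blk, Fcrla and Cd22 among them exceeded 1 TPM only in R7-II, so they were tested only through the clone where they are high. The summed level of the B cell list was 8.68 to 15.83 TPM in the R7-I libraries, 75.30, 36.46 and 58.00 TPM in R7-II replicates 1, 2 and 3, and 5.27 to 7.94 TPM in R7-III. All 7 MHC class II genes were higher too, and 5 after quantile normalization (32.4 to 50.3, 112 to 183 and 24.3 to 28.1 TPM), as were 7 of 10 myeloid markers (5.43 to 6.54, 27.1 to 89.0 and 5.93 to 8.18 TPM), a count of 4 without R7-I replicate 1 and of 3 after quantile normalization. Within R7-II, Txnip and Arrdc1 followed the order of the B cell sum. Arrdc2 and Arrdc4 were also lowest in replicate 2, and Arrdc3 was lowest in replicate 3. In replicate 2 the B cell, MHC class II and myeloid sums were the lowest of R7-II, at 36.46, 112 and 27.1 TPM. Each was still above every library of the other clones. Txnip in that library was 103.71 TPM and Arrdc3 25.83 TPM, against at most 43.86 and 9.53 TPM in the other clones.

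No B cell, MHC class II or myeloid marker was at 0 in all 3 libraries of a clone. The 8 markers of the CD8 T cell list, all but Cd8a and Cd8b1 shared with other T cells, were strong in every library. Their sum was 1764 to 1861 TPM in R7-I, 2524 to 2672 TPM in R7-II and 1872 to 1964 TPM in R7-III. Of these 8, 6 were higher in R7-II than in both clones, beside 31.9% of all genes. After median-of-ratios scaling 4 were higher, beside 21.1%, and after quantile normalization 6 were, beside 19.2%. CD4 T cell markers summed to 0.72 to 1.35 TPM in the R7-I libraries, 2.18 to 2.94 TPM in those of R7-II and 1.16 to 1.34 TPM in those of R7-III. The 1 of these 3 markers tested, Foxp3, was called higher than in R7-III (log2 fold change 0.59, adjusted p = 0.00410) but not than in R7-I (0.41, adjusted p = 0.0251), and the R7-III call was lost after quantile normalization (0.32, adjusted p = 0.0577) and without R7-II replicate 1 or 3 or any R7-III library (0.52 to 0.61, adjusted p from 0.0101 to 0.0179). Foxp3 exceeded 1 TPM only in R7-II replicates 1 and 3, so it was tested only through the clone where it is high. NK cell markers summed to at most 0.17 TPM, with Klra8 and Klra4 at 0 throughout, and erythroid markers summed to 22.1 to 73.3, 1.30 to 15.1 and 8.99 to 25.5 TPM. The part of other cells in the Txnip and arrestin-domain differences was not tested, and in bulk RNA fewer cells of a type and less RNA per cell cannot be told apart.

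Set against the whole transcriptome, many genes moved with R7-II. With limma and an adjusted p of at most 0.01, R7-II exceeded R7-I in 4 of the 5 members, beside 40.6% of all genes, and lay below it in 1, beside 15.5%. R7-II exceeded R7-III in 4 members, beside 35.6% of all genes, and lay below it in 1, beside 18.0%. Both comparisons share the R7-II libraries. The same 4 genes were higher than both other clones, as 31.9% of genes were, and the same 1 was lower than both, as 12.8% were. The size of the change set Txnip and Arrdc3 apart more than the call did: both rose by over 2-fold in each comparison on the log2(TPM + 1) scale, as 5.98% of genes did against R7-I and 4.77% against R7-III. The median member had a log2 fold change of 0.67 in the first comparison and 0.49 in the second.

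The median gene tested moved by 0.17 on the log2 scale from R7-I to R7-II, by 0.12 from R7-III to R7-II and by 0.04 from R7-I to R7-III, in TPM that sum to the same total in every library. Higher levels in R7-II made up 72.4% of calls in the R7-I comparison and 66.4% in the R7-III comparison, and 47.7% and 47.9% after median-of-ratios scaling. Relative to the median gene, Txnip was higher by 1.38 and 1.37 in the 2 comparisons, Arrdc3 by 1.32 and 1.44, Arrdc1 by 0.50 and 0.37 and Arrdc2 by 0.36 and 0.20. Arrdc4 relative to the median gene was at -1.08 and -0.99. No member changed direction in either R7-II comparison under median-of-ratios scaling or quantile normalization. An exact two-sided permutation test of the 3 R7-II libraries against the other 6 gave p = 0.0238 for each of the 5 genes, the smallest value that design allows. That p only restates that R7-II did not overlap the other 6 libraries, and the share of all genes that reach it is not given here.

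**Figure D2:**
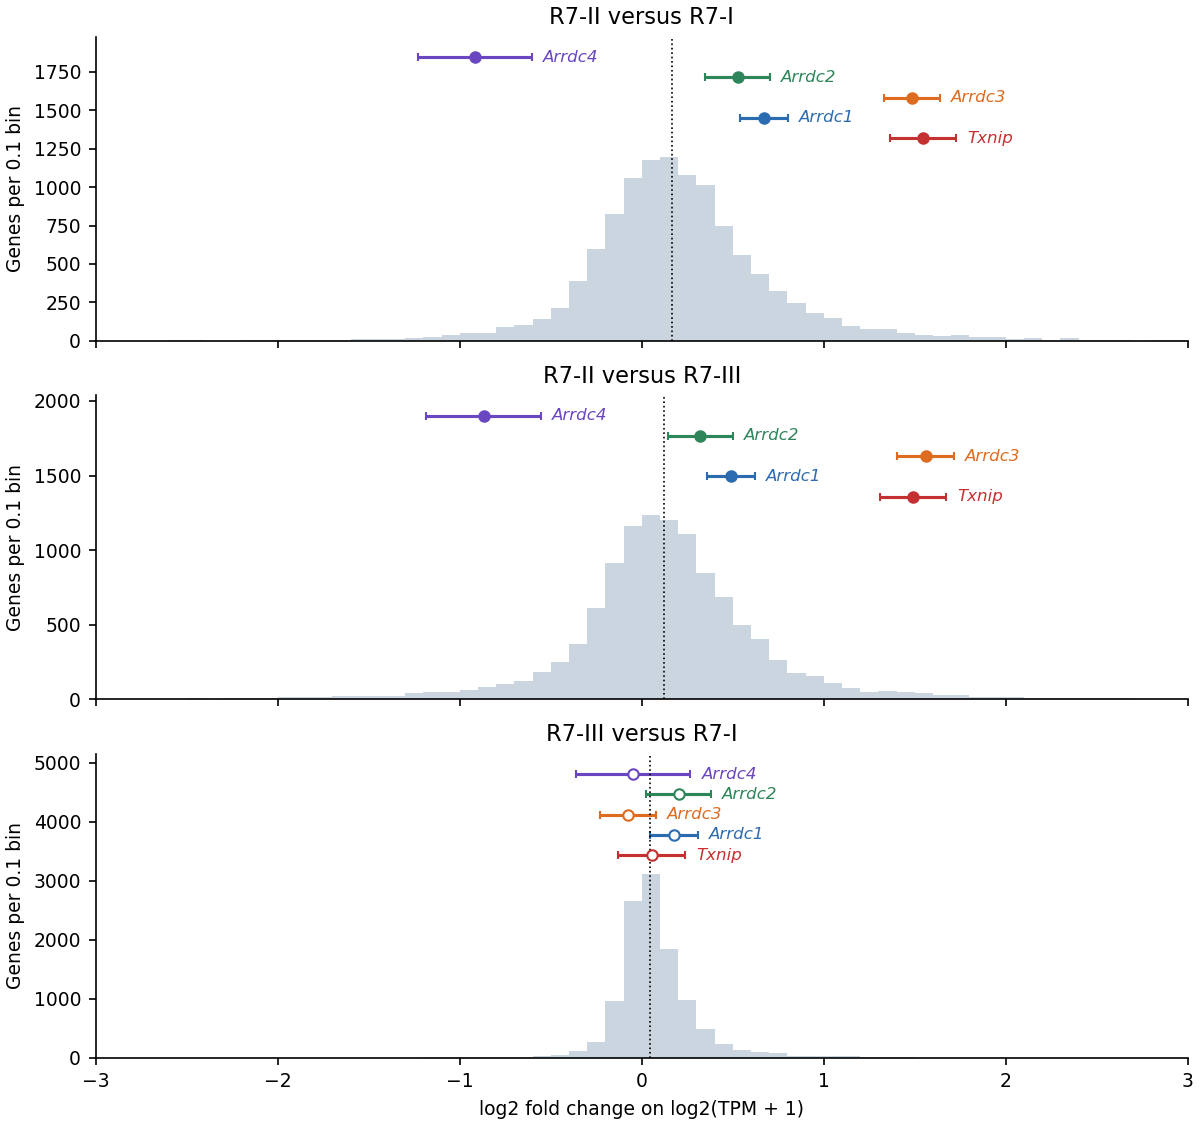
Grey bars count genes tested per 0.1 of log2 fold change on log2(TPM + 1) in each comparison (genes beyond 3 in either direction are not drawn), the dotted line marks the median gene, and points with 95% intervals are the members, filled where the adjusted p was at most 0.01. Txnip and Arrdc3 lie in the right tail and Arrdc4 in the left tail of both R7-II comparisons, and all 5 points are open between R7-III and R7-I.

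Between R7-III and R7-I none of the 5 genes passed the threshold by limma, and 2 had an unadjusted p under 0.05. In this comparison 8.41% of all genes were called in either direction. The log2 difference for Txnip was 0.06 (95% interval -0.13 to 0.24, adjusted p = 0.698), for Arrdc3 -0.08 (-0.23 to 0.08, adjusted p = 0.495) and for Arrdc4 -0.05 (-0.36 to 0.27, adjusted p = 0.862). Arrdc1 and Arrdc2 were the pair with an unadjusted p under 0.05: their libraries did not overlap, and their log2 differences were 0.18 (0.05 to 0.31, adjusted p = 0.0608) and 0.20 (0.03 to 0.38, adjusted p = 0.106). The interval for Txnip reached 1.18-fold at its upper end.

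The make-up of the family differed in R7-II. Summed over the 5 genes the level was 79.85 to 87.37 TPM in the R7-I libraries, 175.59 to 214.27 TPM in those of R7-II and 87.33 to 89.91 TPM in those of R7-III. Txnip made up 48.4% ± 1.58 (SD, n = 3) of that sum in R7-I, 61.3% ± 1.93 in R7-II and 47.5% ± 0.209 in R7-III. The Arrdc1 share was 28.6% to 32.4% in R7-I, 19.7% to 21.7% in R7-II and 31.9% to 32.4% in R7-III, and the Arrdc4 share in the same order was 4.73% to 6.71%, 0.826% to 1.25% and 4.53% to 5.39%.

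Within a library the ratio of Txnip to Arrdc4 was 7.15 to 10.1 in R7-I, 8.76 to 10.5 in R7-III and 49.6 to 71.5 in R7-II, so the ranges of R7-II and the others were far apart. The ratio of Txnip to Arrdc3 was 4.37 to 4.83 in R7-I, 4.02 to 4.95 in R7-II and 4.91 to 5.26 in R7-III, and the R7-II range overlapped both. A scaling factor per library leaves such ratios as they are. The order Txnip, Arrdc1, Arrdc3 held in all 9 libraries, whereas Arrdc2 and Arrdc4 overlapped in R7-I and Arrdc2 was the higher of the pair in every library of R7-II and R7-III. Arrdc5, the remaining α-arrestin, was listed at 0 in 8 libraries and at 0.10 TPM in R7-II replicate 2.

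**Figure D3:**
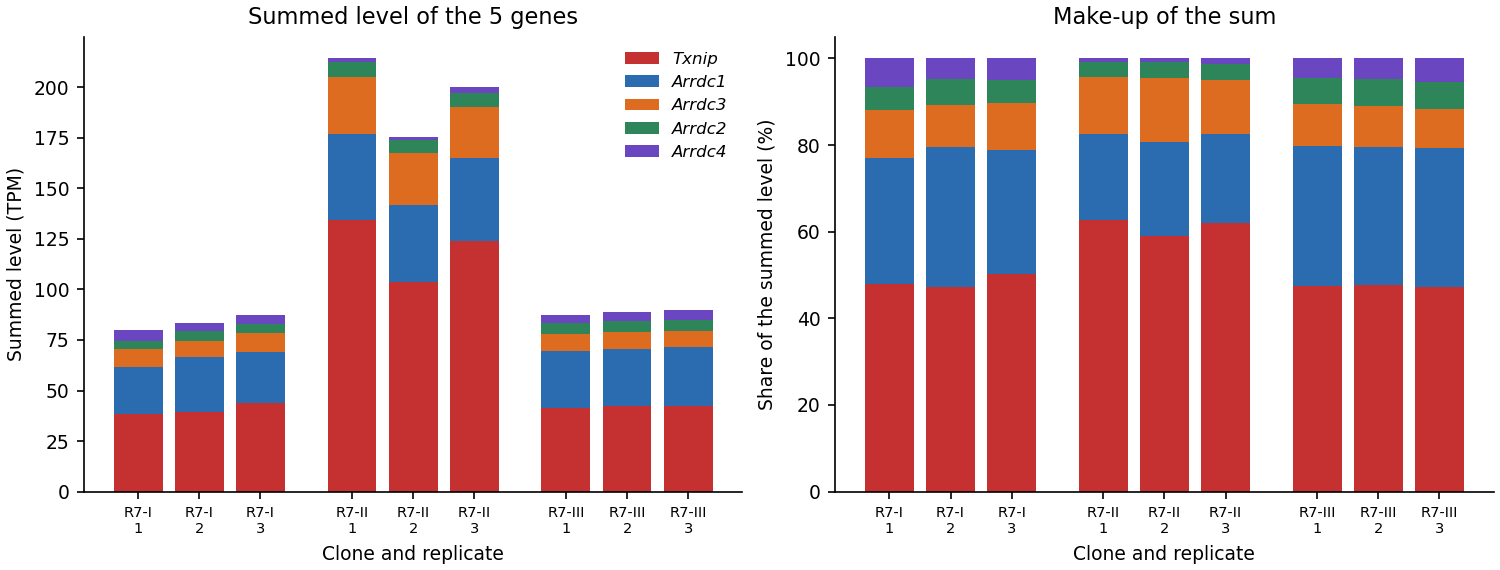
Stacked bars for each library, by clone and replicate, of the summed TPM of the 5 genes (left) and of each gene's share of that sum in percent (right). The R7-II sums are 175.59 to 214.27 TPM against at most 89.91 TPM elsewhere, with a larger Txnip band and a thinner Arrdc4 band.

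Profiles most like each member over the 9 libraries were found by Pearson correlation of log2(TPM + 1) among 8839 genes with a mean of at least 5 TPM. The libraries fall into clone groups, so the coefficients describe the step between clones together with the spread within them, and no p is given. For Txnip the nearest were Rarg, a retinoic acid receptor (r = 0.999), Sepp1, a selenoprotein (r = 0.999; means of 8.02, 39.7 and 9.12 TPM in the order of the clones' numbers), and Dnm2, the dynamin that cuts endocytic vesicles from the membrane (r = 0.999; 64.9, 113.5 and 66.6 TPM). For Arrdc3 they were Emp1 (r = 0.998; 1.67, 12.9 and 1.58 TPM), Ubxn6 and Spata13, for Arrdc1 the amino acid transporter Slc43a2 (r = 0.995), Lin37 and Amigo2, and for Arrdc2 Coro1b (r = 0.994), Inpp5d and Ift46. For Arrdc4, which was lowest in R7-II, they were Cdkn2aipnl (r = 0.983), Mat2a, which makes S-adenosylmethionine, and Ammecr1.

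Genes that act on Txnip were read beside it, from lists fixed with earlier results of these data known. Counts of list genes higher or lower in R7-II than in both clones stand beside 31.9% and 12.8% of all genes tested, 21.1% and 22.9% after median-of-ratios scaling and 19.2% and 20.6% after quantile normalization. Among regulators, all 3 Foxo factors tested, which T cell receptor signalling is known to keep out of the nucleus, rose in R7-II against both other clones. Foxo1 was 30.20, 29.26 and 33.08 TPM in the R7-I libraries, 60.17, 49.73 and 54.62 TPM in those of R7-II, and 30.22, 31.27 and 29.82 TPM in those of R7-III, with log2 fold changes of 0.81 and 0.82 (adjusted p = 2.91e-06 and 2.48e-06). Foxo3 changed by 0.71 and 0.55 and Foxo4 by 0.94 and 0.89, and R7-II did not overlap the other clones in any of the 3. The share of all genes without such overlap is not given here. The list's median was 0.81 and 0.82, beside 0.17 and 0.12 for all genes.

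The Mlx network differed less. Mlxip, which encodes MondoA, stood at 34.4 ± 0.335 TPM in the R7-I libraries, 41.3 ± 3.63 TPM in those of R7-II and 33.8 ± 1.22 TPM in those of R7-III, with log2 fold changes of 0.25 and 0.28 (adjusted p = 0.00327 and 0.00190). Its call against R7-I was lost without R7-I replicate 1 or 3 (0.25 each) and without R7-II replicate 1 or 3 (0.24 and 0.20; adjusted p from 0.0122 to 0.0135), and both calls were lost under median-of-ratios scaling and quantile normalization. Mlx did not pass the threshold (63.0, 60.8 and 59.3 TPM, log2 fold changes -0.05 and 0.03), but was called lower than in R7-I under both rescalings (-0.23 and -0.18, adjusted p = 0.00101 and 0.00569). The third gene of the list, Mlxipl, was too low to test. The list's median was 0.10 and 0.16.

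Of 7 tested genes for the glucocorticoid receptor and its targets, 5 rose in R7-II against both clones and none fell, beside 31.9% and 12.8% of all genes, and 4 rose after either rescaling. The list's median was 0.58 and 0.49, beside 0.17 and 0.12 for all genes. Tsc22d3, a classical glucocorticoid-induced gene and also a Foxo target, had the largest change: 15.14, 13.39 and 14.92 TPM in the R7-I libraries, 82.18, 50.81 and 65.41 TPM in those of R7-II, and 9.74, 12.66 and 10.97 TPM in those of R7-III (log2 fold changes 2.09 and 2.45). The kinase gene Sgk1 rose by 1.38 and 1.52, the receptor gene Nr3c1 by 0.58 and 0.49, and the phosphatase gene Dusp1 by 1.31 and 0.99. Per1 rose by 0.28 and 0.37, and its call against R7-I was lost under both rescalings (0.11 and 0.089, adjusted p = 0.104 and 0.184), with only the clones compared (adjusted p = 0.0106) and without R7-I replicate 1 (0.26, adjusted p = 0.0133). Fkbp5, the most widely used glucocorticoid marker, was not called, at 30.2, 34.1 and 34.9 TPM, but was called lower in R7-II than in R7-III after both rescalings (-0.16 and -0.19, adjusted p = 0.00738 and 0.00322) and, when R7-II replicate 2 was left out, higher than in R7-I (0.21, adjusted p = 0.00392).

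Genes of the thioredoxin system, which holds the thioredoxin that Txnip binds, showed no common rise in RNA. Of 12 tested genes of the thioredoxin system, 1 was higher and 3 were lower in R7-II than in both clones, with a median of -0.07 and -0.12. Txn1, the thioredoxin that Txnip binds, was 567.92, 550.29 and 528.91 TPM in the R7-I libraries, 459.88, 472.80 and 483.96 TPM in those of R7-II, and 534.56, 525.56 and 510.22 TPM in those of R7-III (log2 fold changes -0.22 and -0.15, adjusted p = 1.65e-04 and 0.00220). Its R7-III call was lost without R7-III replicate 1 or 2 (-0.13 and -0.15, adjusted p = 0.0122 and 0.0101) and after quantile normalization (-0.045, adjusted p = 0.214). The peroxiredoxins Prdx3 (-0.25 in both) and Prdx4 (-0.54 and -0.67) were the others lower and the reductase Txnrd1 (0.20 and 0.18) the one higher. Without R7-I replicate 2 or R7-II replicate 1 or 3 this count was 0 higher and 2 lower, without R7-I replicate 1 it was 1 and 2, and without R7-III replicate 1 or 2 it was 0 and 1. It was 0 higher and 8 lower after median-of-ratios scaling, 2 and 2 after quantile normalization, and 0 and 1 in a fit without the mean-variance trend.

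Of 6 tested genes for glucose entry, 2 were lower in R7-II than in both clones and none higher, with a median of -0.0044 and -0.04. Hk2, the inducible hexokinase that traps glucose in the cell, was 71.58, 74.07 and 66.93 TPM in the R7-I libraries, 38.49, 37.76 and 41.32 TPM in those of R7-II, and 66.39, 66.58 and 63.56 TPM in those of R7-III (log2 fold changes -0.84 and -0.73, adjusted p = 2.25e-07 and 5.51e-07). Slc2a6, an intracellular hexose transporter, changed by -0.86 and -1.11. Slc2a1, the GLUT1 gene and the best known cargo of Txnip, was 67.8 ± 2.73, 60.9 ± 1.59 and 65.6 ± 1.35 TPM (-0.15 and -0.11, adjusted p = 0.00566 and 0.0341). It was called lower than R7-I but not than R7-III, and was called in both after either rescaling. The R7-I call was lost without R7-I replicate 2 or 3, R7-II replicate 1 or 2 or R7-III replicate 1 (-0.16 to -0.12, adjusted p from 0.0103 to 0.0264). That call was also lost without the mean-variance trend, with only the clones compared and with a replicate block (adjusted p = 0.0123, 0.0154 and 0.0124). Without R7-II replicate 1, with a pseudocount of 5 or without the mean-variance trend, 1 gene of the list, Slc2a8, was higher than in both clones.

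The machinery that arrestin-domain proteins recruit was mixed. Of 7 tested NEDD4-family ligases, 4 were higher in R7-II than in both clones and 1 was lower, beside 31.9% and 12.8% of all genes, with a median of 0.32 and 0.31 beside 0.17 and 0.12. Smurf1 was 10.11, 10.28 and 9.97 TPM in the R7-I libraries, 22.17, 17.60 and 20.65 TPM in those of R7-II, and 9.49, 9.56 and 10.03 TPM in those of R7-III (log2 fold changes 0.92 and 0.98), and Nedd4l, at 0.667, 2.17 and 0.77 TPM, changed by 0.91 and 0.82. Nedd4l exceeded 1 TPM only in R7-II, so it entered the count only through the clone where it is high. Itch, the ligase best known to work with Txnip and a brake on T cell activation, was 33.9 ± 0.591, 41.2 ± 1.87 and 33.0 ± 0.398 TPM (0.27 and 0.31, adjusted p = 2.07e-04 and 9.34e-05). Itch and Smurf2 lost a call after median-of-ratios scaling and after quantile normalization, which left 2 of 7 higher beside 21.1% and 19.2% of all genes. Nedd4 was the one lower (-0.32 and -0.68), and without R7-I replicate 2 or 3 or R7-II replicate 1 or 3 it was not called in both, nor with no filter on low values or with only the clones compared in the fit.

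Ndfip1, a membrane activator of these ligases, stood at 382, 447 and 368 TPM (log2 fold changes 0.23 and 0.28, adjusted p = 0.00754 and 0.00256). Its call against R7-I was lost when any library but R7-I replicate 3 or R7-II replicate 3 was left out (0.17 to 0.23, adjusted p from 0.0105 to 0.0334), and that against R7-III without R7-II replicate 1 or R7-III replicate 1 or 2 (0.22, 0.26 and 0.27, adjusted p from 0.0112 to 0.0122). Under median-of-ratios scaling both Ndfip1 calls were lost (0.051 and 0.15, adjusted p = 0.450 and 0.0415), and both were lost without the mean-variance trend (adjusted p = 0.0229 and 0.01001). The call against R7-I was also lost with no filter on low values, with only the clones compared and with a replicate block (adjusted p = 0.0196, 0.0204 and 0.0122). Ndfip2, the related activator, was not called higher than both, and after both rescalings it was called lower in R7-II than in R7-III (-0.16 and -0.18, adjusted p = 0.00155 and 6.83e-04).

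Of 13 tested ESCRT genes, the budding machinery that Arrdc1 draws on, 7 were higher in R7-II than in both clones and none lower, beside 31.9% and 12.8% of all genes, with a median of 0.25 and 0.26 beside 0.17 and 0.12. After median-of-ratios scaling 5 were higher and none lower, and after quantile normalization 5 were higher and 1, Mvb12b, was lower. Tsg101, the subunit that Arrdc1 recruits, was not called, at 62.82, 60.90 and 60.50 TPM in the R7-I libraries, 64.03, 61.30 and 61.15 TPM in those of R7-II, and 58.32, 58.20 and 59.78 TPM in those of R7-III (log2 fold changes 0.02 and 0.08, 95% intervals -0.06 to 0.09 and 0.0026 to 0.16, adjusted p = 0.673 and 0.0637). Vps37b stood at 20.9 ± 0.291 TPM in the R7-I libraries, 44.5 ± 6.78 TPM in those of R7-II and 23.1 ± 2.50 TPM in those of R7-III (1.04 and 0.91), Pdcd6ip, which encodes ALIX, rose by 0.47 and 0.51, and Vps28 by 0.37 and 0.32.

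Of the 6 tested genes with an arrestin fold outside the family, 1 was called in both comparisons: Arrb1, a β-arrestin, was 0.58, 0.70 and 0.70 TPM in the R7-I libraries, 5.80, 4.13 and 5.20 TPM in those of R7-II, and 0.66, 0.91 and 1.00 TPM in those of R7-III (1.86 and 1.70). Arrb1 exceeded 1 TPM only in R7-II, so it was tested only through the clone where it is high. Arrb2, the main β-arrestin by level in these cells, was 50.5, 66.3 and 58.4 TPM (0.39 and 0.18, adjusted p = 2.26e-04 and 0.0220), and the list's median was 0.36 and 0.16. Without R7-I replicate 2 the count was 2, with Dscr3.

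**Figure D4:**
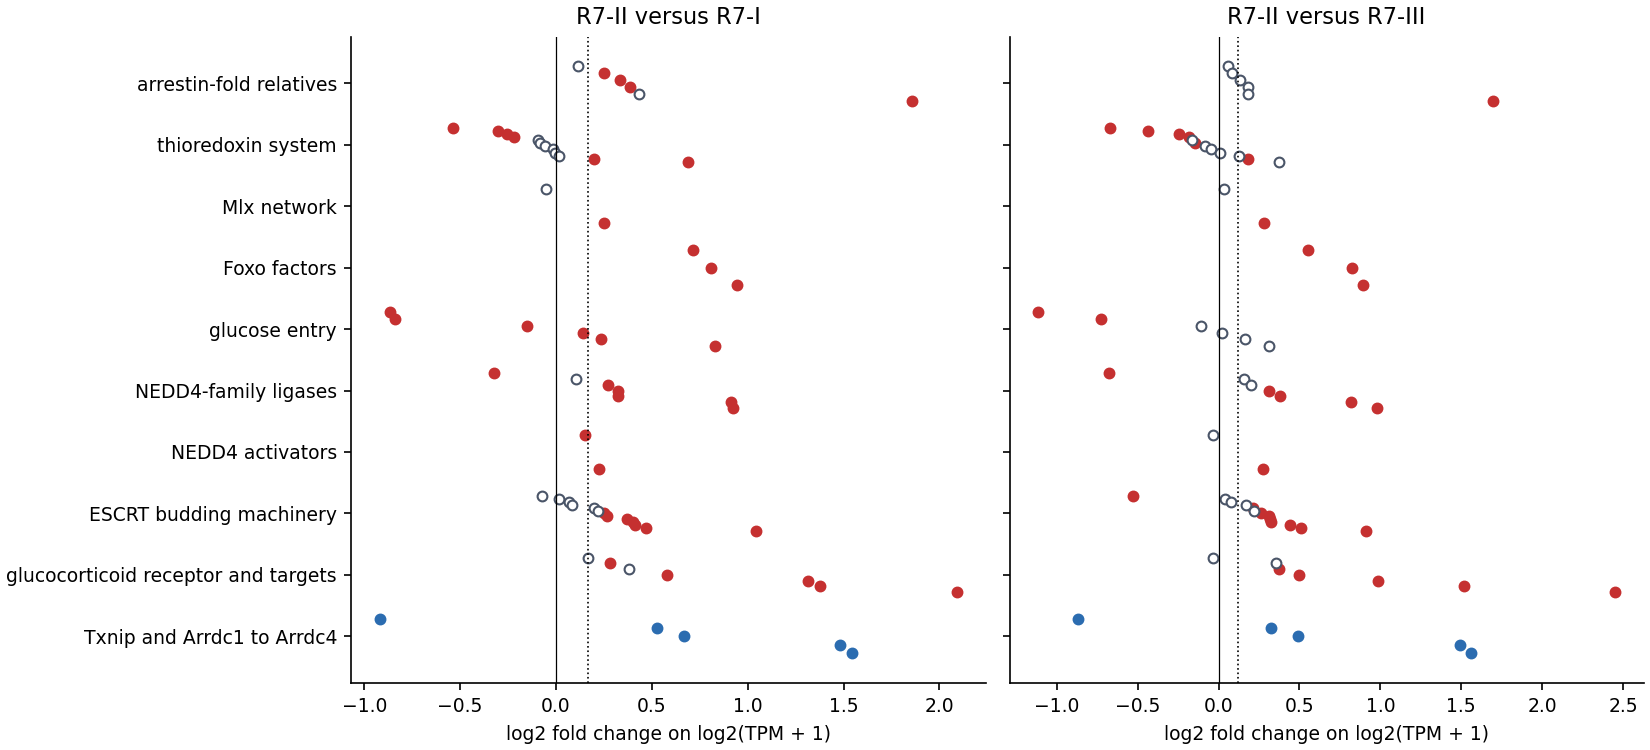
Each point is the log2 fold change on log2(TPM + 1) of 1 tested gene of a list in R7-II against R7-I (left) or R7-III (right), red where the adjusted p was at most 0.01 and white otherwise, with the 5 members in blue in the bottom row; the dotted line marks the median gene. All 3 Foxo factors lie to the right, and genes of the thioredoxin system lie on both sides of 0.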

How the data were processed

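RNA of sorted, peptide-activated CD8 T cells was sequenced in 9 libraries, 3 per clone. The authors prepared libraries with a kit that does not keep strand, ran RSEM 1.2.11 for alignment and for the level of each mm10 RefSeq gene, and deposited these levels as TPM; the program RSEM called to align was not given in the sources used here. TPM keeps no depth, so precision cannot be derived from read numbers and no counting interval is given. Between 13738 and 14434 genes were above 0 in a library, and Pearson correlations of log2 levels within a clone were 0.992 to 0.997. The columns matched the samples by name.

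Genes with a maximum TPM above 1 were kept, and log2(TPM + 1) was fitted with limma 3.58.1 (lmFit, eBayes with trend) in R 4.3.3, all 9 libraries together, and p-values were adjusted by Benjamini-Hochberg over all genes tested, with a threshold of 0.01. The authors' DESeq2 test needs counts and was not repeated. Levels of single genes were also compared by an exact permutation test with scipy 1.17.1 in Python 3.11.15. The fit was tested on simulated data with known changes. Those changes were few, even in both directions and without a shift of the median gene, so that test does not cover the shift seen here.

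The members, gene lists and tests were chosen with earlier results of these data known. Named were all members in every library, from each list every gene where 5 or fewer were tested and otherwise the largest changes called in both R7-II comparisons and the most abundant genes, Slc2a1, Txn1, Mlxip, Itch and Arrdc5, and the 3 closest profiles of each member; Smurf2, Nedd4, Txnrd1, Nr3c1, Dusp1, Slc2a8, Dscr3, Tsg101, Mvb12b and Gm15441 were named after their values were seen. A planned list of described cargo proteins is not reported here. Promoters are RefSeq entries of GRCm38.p6, and gene positions are RefSeq positions on the same build. The alternatives were pseudocounts of 0.1 and 5, no filter or a mean of at least 1 TPM, median-of-ratios scaling, quantile normalization, no trend, only the clones compared, a replicate block, a threshold of 0.05, and leaving out each library in turn.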

Additional observations from a re-analysis of the deposited data

How the results depend on the processing

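All 5 members kept their direction in both R7-II comparisons under every alternative run, and Txnip, Arrdc1, Arrdc3 and Arrdc4 kept their calls there. The Arrdc2 call against R7-I was lost after quantile normalization (log2 fold change 0.18). The Arrdc2 call against R7-III was lost with no filter on low values (0.32), median-of-ratios scaling (0.21) and quantile normalization (0.13), and with libraries left out it ran from 0.30 to 0.37. Replicate numbers did not pair the libraries: deviations from the clone means correlated between -0.0449 and 0.0888 for same-numbered libraries, and with the replicate number as a block the Arrdc2 value against R7-III was 0.32 (adjusted p = 0.0106), the only member call that changed. Between R7-III and R7-I, 2142 genes were called at a threshold of 0.05, and 422 to 1076 with 1 library left out (422 without R7-I replicate 1), beside 953. The Arrdc4 log2 difference there ran from -0.13 to 0.05 and turned positive without R7-I replicate 1 (0.054) or R7-III replicate 1 (0.0064). The cause of these changes was not tested.

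Among partner and marker genes, most directions that turned belonged to values near 0. Prdx1 was not called in the main fit, but the rescalings called it in opposite directions. It was called lower in R7-II after median-of-ratios scaling (-0.18 against R7-I and -0.12 against R7-III, adjusted p = 4.66e-04 and 0.00624). After quantile normalization it was called higher (0.088 and 0.10, adjusted p = 0.00546 and 0.00213). In R7-II against R7-I, median-of-ratios scaling gave -0.057 for Vps26a, -0.019 for Ndfip2 and -0.0042 for Fkbp5, and quantile normalization gave -0.10, -0.044 and -0.044 for the same genes and 0.088 for Prdx1. Against R7-III, median-of-ratios scaling gave -0.062 for Vps26a, -0.12 for Prdx1 and -0.091 for Mlx, and quantile normalization -0.093 for Vps26a and -0.067 for Mlx. Between R7-III and R7-I, quantile normalization gave -0.0072 for Vps26a, -0.074 for Foxo4 and -0.0052 for Nedd4l, and median-of-ratios scaling -0.022 for Cd8b1. With libraries left out, values in R7-II against R7-I ran from -0.024 to 0.0048 for Prdx1, and against R7-III from -0.0031 to 0.016 for Prdx1, -0.063 to 0.0016 for Ndfip2, -0.072 to 0.0052 for Fkbp5 and -0.61 to 1.35 for Hba-a2. Between R7-III and R7-I they ran from -0.021 to 0.0069 for Prdx3, -0.053 to 0.033 for Foxo1, -0.0053 to 0.095 for Foxo4 and -0.11 to 0.011 for Ndfip1.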
